A study of Rattus norvegicus with 18 samples.

Results

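Oxidative phosphorylation genes were followed through rat germ-line development, from epiblast to the primordial germ cells (PGC) that later give rise to eggs and sperm. Members were all rows whose gene symbol names a subunit of the respiratory chain or of ATP synthase: Nduf with a letter a, b, c, s or v and a number, Sdha to Sdhd, Uqcr, Cox4 to Cox8, Atp5, and the Mt- genes for nd, co, cyb and atp subunits. Of 32545 rows, 99 matched and 93 reached 1 RPKM (reads mapped to a gene, scaled by transcript length and library total) in at least 2 of 18 libraries. The 93 members carry 88 symbols, since Uqcr10, Atp5f1, Ndufa13, Cox6b1 and Cox7a2 each name more than 1 row. Nuclear members number 82, with 34 in complex I, 4 in complex II, 8 in complex III, 17 in complex IV and 19 in complex V. Mitochondrially encoded members number 11, with 6 in complex I, 3 in complex IV and 2 in complex V.

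All libraries came from Crlj:WI (Wistar) rats with the genotype Prdm14-Venus, a fluorescent reporter of the germ-cell regulator Prdm14. PGC were taken at embryonic day (E) 9.5, E10.5, E11.5 and E12.5, with 2 libraries at each age and no sex label, and at E15.5 with 2 female and 2 male libraries. Epiblast was taken at E7.25 and at E7.75, with 1 female library and 2 male libraries at each age. How the cells were isolated, and whether replicates came from separate embryos, is not given in the sources used here, so p-values cover only the scatter among the libraries at hand, and part of that may be technical.

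Oxidative phosphorylation passes electrons from NADH through complex I and from succinate through complex II to complex III, cytochrome c and complex IV, where oxygen is reduced. Complexes I, III and IV pump protons across the inner mitochondrial membrane, and complex V, the ATP synthase, uses the returning protons to make ATP. Mitochondrial DNA encodes a few membrane subunits of complexes I, III, IV and V, while all of complex II and every other subunit comes from nuclear genes, so that each mixed complex needs products of both genomes. Early embryos and germ cells are known to shift between glycolysis and respiration as they change potency.

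The rule goes by symbol, and some of its genes are not plain subunits. Atp5s and Atp5sl are older symbols of factors linked to complex assembly, Cox7a2l takes part in joining complexes III and IV, Ndufa4 is now counted with complex IV, and Ndufv3-ps1 and Atp5hl1 are copies of other members whose reads the counting could have split. Of the 6 rows that did not pass, Cox8b, Cox6a2, Cox6c1 and Ndufa1 were listed at 0 in every library. Mt-nd4 was listed at no more than 0.026 RPKM and Ndufb4l1 reached 0.725 RPKM in E10.5 replicate 2 only. A value of 0 for Ndufa1 or Mt-nd4, which respiring cells use, can be a failed estimate and is given here only as listed. Mt-cytb, the mitochondrial subunit of complex III, is spelled outside the rule and was listed between 886 and 1893 RPKM. Mt-atp8 and Mt-atp6 overlap, as do Mt-nd4l and Mt-nd4, and strand is not stated for the counting, so their reads may be shared. Nuclear copies of mitochondrial DNA add the same uncertainty to all 11 mitochondrial members.

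Summed levels of germ-cell markers were 426 to 1873 RPKM in PGC libraries and 21.0 to 43.4 RPKM in epiblast libraries. Depth is not stated, but a relative estimate can be read from the ratio that low values of paired libraries share most often, with the E7.75 female library as 100%. It was 20.7% to 22.9% in the 4 E10.5 and E11.5 libraries and 82.6% to 121% in the other 14. Few genes carry this estimate. The most common ratio was shared by 38 of 8305 compared genes in E10.5 replicate 1 and 71 of 8297 in E10.5 replicate 2. At E11.5 it was shared by 81 of 9142 and 73 of 9089, and in the remaining libraries, apart from the reference, by 78 to 158 genes. Genes tested but listed at 0 made up 21.4% and 21.6% in the E10.5 libraries and 8.30% to 15.4% in the other 16.

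Summed over members, nuclear transcripts reached their highest level at E10.5 and mitochondrial transcripts were high in epiblast and at E10.5. The 82 nuclear members summed to 23310 to 25230 RPKM in the 6 epiblast libraries, 17340 and 21370 at E9.5, 38710 and 48370 at E10.5, 29700 and 29770 at E11.5, 17780 and 18920 at E12.5, and 17490 to 22940 at E15.5. The 11 mitochondrial members summed to 18090 to 23590 RPKM in epiblast, 9554 and 13220 at E9.5, 24620 and 26740 at E10.5, 13720 and 15640 at E11.5, 14860 and 15190 at E12.5, and 12910 to 19200 at E15.5. Both sums were higher in each E10.5 library than in any other library. All rows together totalled 849182 and 760137 RPKM at E10.5 and 587609 to 747251 RPKM in the other libraries. As a share of that total, nuclear members made up 5.70% and 5.09% at E10.5 and at most 4.435% elsewhere. Mitochondrial members made up 3.15% and 3.24% at E10.5, within the epiblast range, which reached 3.26% in E7.75 male replicate 2. In bulk samples, fewer cells of a type and less RNA per cell cannot be told apart.

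**Figure D1:**
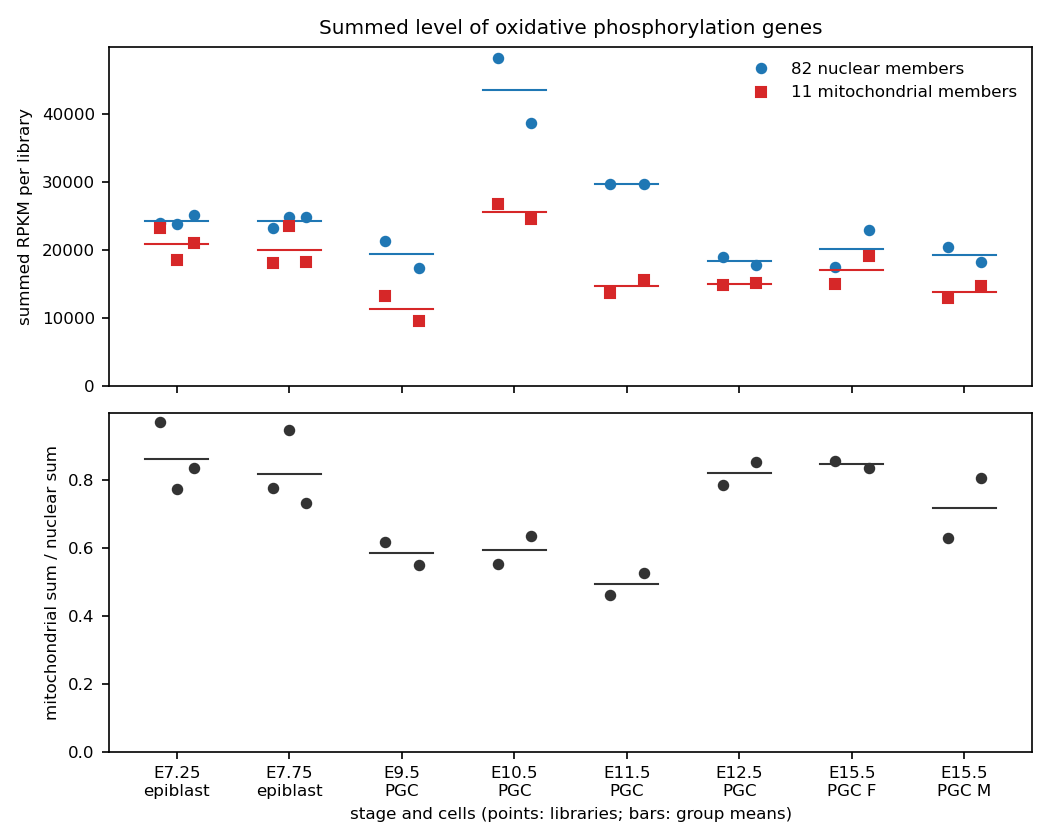
Summed RPKM of the 82 nuclear and the 11 mitochondrial members, and the ratio of the mitochondrial sum to the nuclear sum, in each of 18 libraries by stage, with 1 point a library and bars at group means. The 2 E10.5 libraries stand above all others in both sums, and the ratio is lowest at E11.5 (0.461 and 0.527). The sums are not divided by the RPKM total of the library, which was also highest at E10.5.

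The ratio of mitochondrial to nuclear sums was 0.775 to 0.973 at E7.25, 0.732 to 0.949 at E7.75, 0.551 and 0.619 at E9.5, 0.553 and 0.636 at E10.5, 0.461 and 0.527 at E11.5, and 0.785 and 0.855 at E12.5. At E15.5 it was 0.837 and 0.856 in female PGC and 0.630 and 0.806 in male PGC. Libraries of E9.5 to E11.5 all lay below every epiblast library in this ratio, and the E12.5 and female E15.5 libraries lay within the epiblast range. Of the nuclear members, 61 of 82 had their highest stage mean at E10.5, as had 7 of 11 mitochondrial members and 12% of all tested genes. The other 4 mitochondrial members were highest in epiblast, namely Mt-co1, Mt-nd3, Mt-atp6 and Mt-atp8. The widest ranges of stage means, on the log2(RPKM + 1) scale, belonged to low members: Cox7b2 (6.20), Cox4i2 (4.85), the lesser Uqcr10 row (3.09), Ndufa4l2 (2.94) and Atp5s (2.89).

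**Figure D2:**
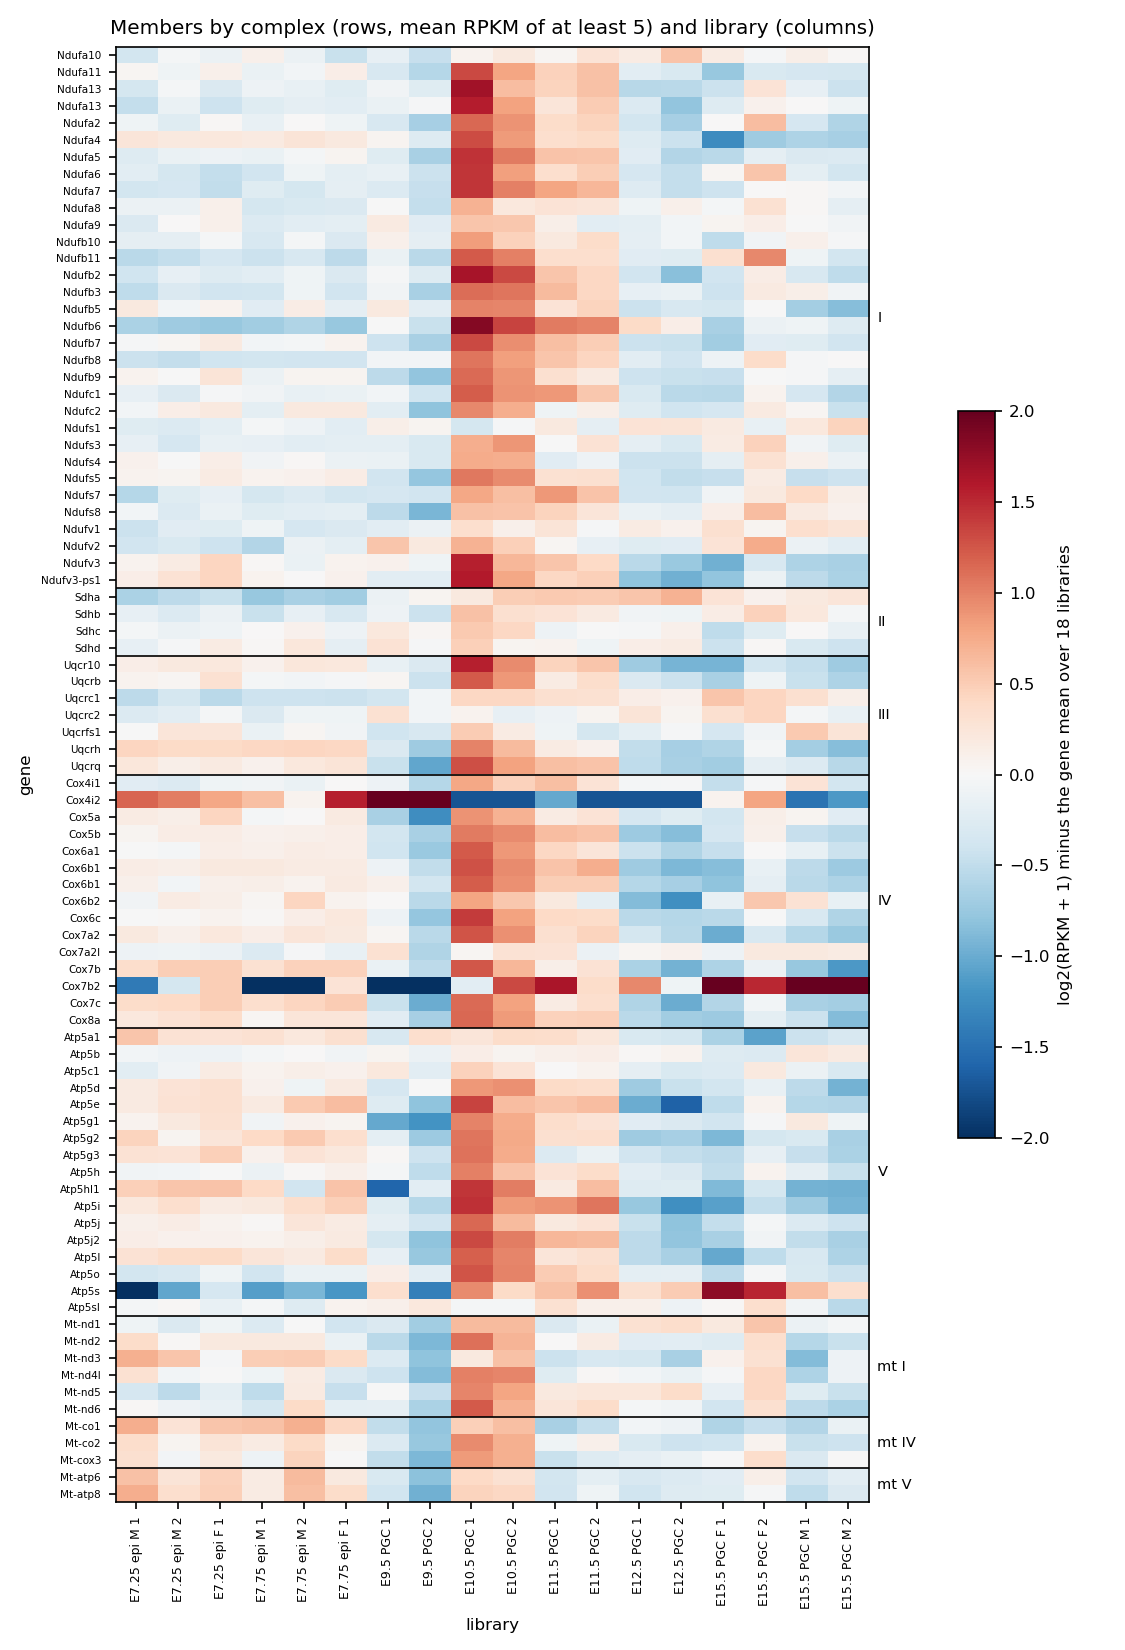
Level of 86 members with a mean of at least 5 RPKM (rows, by complex and genome) in 18 libraries (columns, by stage), as log2(RPKM + 1) minus the mean of that gene over all libraries, with colours limited at -2 and 2. The E10.5 columns are above the gene mean for most rows, while Sdha and Uqcrc1 are low in all 6 epiblast columns.

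Between the epiblast ages no member was called. All tests are limma's moderated test on log2(RPKM + 1), with Benjamini-Hochberg adjustment over 14865 genes and a call at an adjusted p under 0.05. For E7.75 against E7.25 epiblast, 0 of 93 members were called in either direction, beside 0.269% of all tested genes. At an unadjusted p under 0.05, 0 members were higher and 1 was lower, and the median difference over members was 0.01 on the log2 scale. Leaving out any 1 library gave 0 calls as well.

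At E9.5, the youngest PGC age, mitochondrially encoded transcripts and several nuclear subunits of complexes IV and V were lower than in E7.75 epiblast. Of 93 members, 3 rose and 27 fell, beside 16.3% of all genes called higher and 11.3% called lower. The median over members was -0.28 on the log2 scale, against 0.04 over all tested genes. Mitochondrial members fell in 8 of 11 cases and nuclear members in 19 of 82. The falls covered 4 of 34 nuclear members of complex I, 0 of 4 of complex II, 2 of 8 of complex III, 6 of 17 of complex IV and 7 of 19 of complex V. Without E9.5 replicate 2 the count of falls was 13, that of rises was 5 without it or without either female E15.5 library, and after quantile normalization 14 rose and 23 fell.

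Mt-co1, the catalytic subunit of complex IV, was listed at 665 and 536 RPKM at E9.5, against 1404, 1528 and 1240 RPKM at E7.75. The E9.5 libraries were the lower ones without overlap, and the fall was -1.21 ± 0.16 (log2, SE; limma adjusted p = 6.53e-05). Mt-cox3, Mt-co2, Mt-atp6, Mt-atp8, Mt-nd2, Mt-nd3 and Mt-nd4l fell by between 0.57 and 1.06 on the log2 scale in the same test. Mt-nd1 (-0.26), Mt-nd5 (0.03) and Mt-nd6 (-0.35), subunits of complex I, did not pass, and their libraries overlapped.

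Atp5g1, 1 of 3 nuclear genes for subunit c of the ATP synthase rotor, was listed at 279 and 247 RPKM at E9.5, against 536, 600 and 588 RPKM at E7.75. It fell by 1.12 ± 0.13 on the log2 scale (limma adjusted p = 2.17e-05), with no overlap. Cox7c, a small structural subunit of complex IV, was listed at 487 and 336 RPKM at E9.5, against 841, 898 and 945 RPKM at E7.75, and fell by 1.14 ± 0.18 on the log2 scale (limma adjusted p = 3.04e-04).

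The 3 members that rose at E9.5 belong to different complexes. Sdha, the flavoprotein of complex II that oxidises succinate, was listed at 215 and 242 RPKM at E9.5, against 137, 147 and 143 RPKM at E7.75 (0.67 ± 0.11 log2, limma adjusted p = 4.03e-04). Ndufv2, an iron-sulphur subunit of the NADH-oxidising arm of complex I, was listed at 302 and 235 RPKM at E9.5, against 136, 189 and 179 RPKM at E7.75 (0.68 ± 0.16 log2, limma adjusted p = 0.00645). Both had every E9.5 library above every E7.75 library. The call for Ndufv2 was lost without E9.5 replicate 1 (limma adjusted p = 0.0829).

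Cox4i2, the form of complex IV subunit 4 known from lung and hypoxic tissue, was listed at 27.2 and 28.6 RPKM at E9.5, against 4.0, 2.47 and 8.74 RPKM at E7.75. These were its highest values in the series, and it rose by 2.38 ± 0.40 on the log2 scale (limma adjusted p = 5.69e-04). Markers of other cells moved with E9.5. The summed mesenchyme markers were 171 and 174 RPKM at E9.5 and at most 4.59 RPKM at E7.75, with 5 of 6 tested genes rising and Col1a2 listed at 0 in every library. The endothelium and blood markers summed to 28.1 and 110.6 RPKM at E9.5 and at most 0.317 RPKM at E7.75, with Hbb at 0 in every library and Hba1 at 0 at E9.5. Gut epithelium markers summed to 534 and 729 RPKM at E9.5 and 462 to 514 RPKM at E7.75, a sum in which Epcam is high in epiblast. Of the 6, 3 rose: Krt8 averaged 237.5 RPKM at E9.5 and 16.98 RPKM at E7.75, Krt19 50.65 RPKM at E9.5 and 0.459 RPKM at E7.75, and Cdx2 44.4 RPKM at E9.5 and 0.2805 RPKM at E7.75. Epcam fell, with 180.5 RPKM at E9.5 and 379 RPKM at E7.75. The part of these cells in the E9.5 results was not tested.

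At E10.5 most members were higher than at E9.5. Of 93, 75 rose and 1 fell, beside 11.5% of all genes called higher and 18.4% called lower (29.9% in all), and the median over members was 1.18 on the log2 scale against -0.16 over all genes. All 11 mitochondrial members rose, as did 64 of 82 nuclear members. By complex, 29 of 34 nuclear members rose in complex I, 3 of 4 in complex II, 6 of 8 in complex III, 14 of 17 in complex IV and 12 of 19 in complex V. In 67 nuclear members and all 11 mitochondrial members, both E10.5 libraries lay above both E9.5 libraries, as they did in 19.5% of all tested genes. The 78 are 83.9% of the members. Members also moved together between replicates, so these counts are not of independent members. Replicate 1 was above replicate 2 in 79 of 93 members at E9.5 and in 75 at E10.5. The median differences between replicates were 0.355 and 0.25 on the log2 scale, and 0 over all tested genes at both ages.

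**Figure D3:**
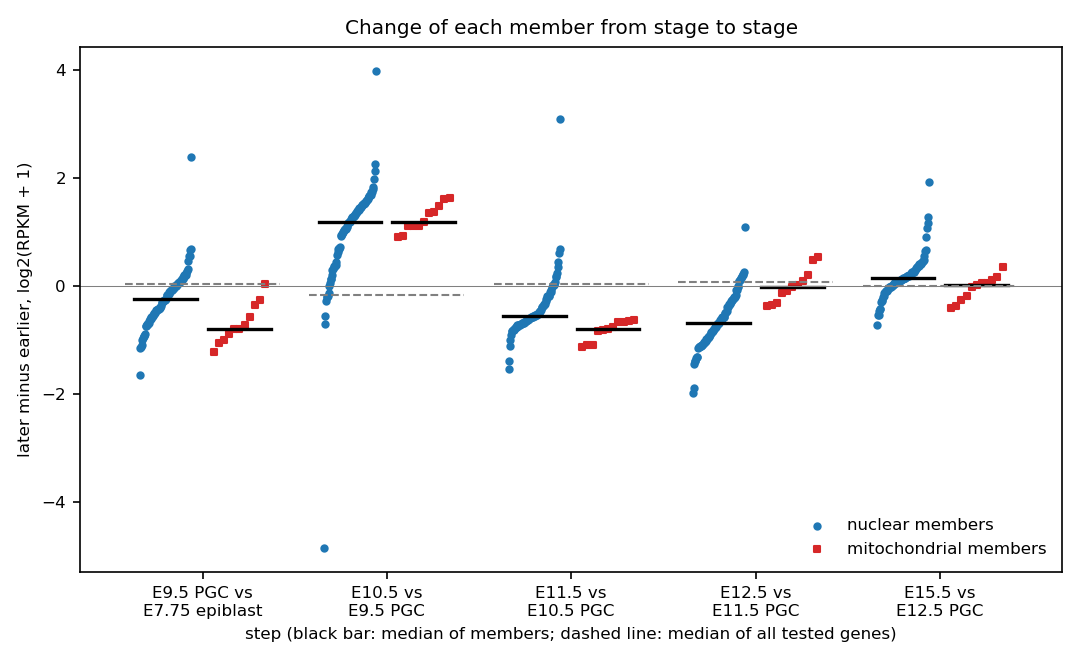
Difference of each nuclear and each mitochondrial member between consecutive stages, in log2(RPKM + 1), for 5 steps beginning with E9.5 against E7.75, with medians as bars and the median of all tested genes dashed. Points lie mostly above 0 at E10.5 against E9.5 and mostly below 0 in the next step, and at E12.5 against E11.5 the nuclear points lie below the mitochondrial ones (medians -0.68 and -0.01).

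In complex I, Ndufb6, a small accessory subunit of the membrane arm, was listed at 1008 and 721 RPKM at E10.5, against 279 and 206 RPKM at E9.5. It rose by 1.83 ± 0.19 on the log2 scale (limma adjusted p = 1.87e-05), with both E10.5 libraries high. The core subunits, which carry the redox centres, included several that did not pass. Ndufs1, the largest of them, was listed at 111 and 139 RPKM at E10.5, against 153 and 147 RPKM at E9.5 (-0.28 ± 0.15 log2, limma adjusted p = 0.198). Counted apart, a grouping made after seeing values, 4 of 7 nuclear core subunits rose with a median of 0.40 on the log2 scale. Of the accessory members 25 of 27 rose, with a median of 1.35. Transcript lengths were not known, so the part of length in this and later differences between subunits was not tested.

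In complex II, Sdha was listed at 267 and 327 RPKM at E10.5, against 215 and 242 RPKM at E9.5 (0.37 ± 0.12 log2, limma adjusted p = 0.0294), and Sdhd, a membrane anchor, did not pass (0.14 ± 0.19). In complex III, Uqcrh, the hinge protein that binds cytochrome c1, was listed at 699 and 548 RPKM at E10.5, against 287 and 214 RPKM at E9.5 (1.31 ± 0.17 log2, limma adjusted p = 9.61e-05). Uqcrc1, a core protein gene, was listed at 610 and 609 RPKM at E10.5, against 353 and 439 RPKM at E9.5 (0.63 ± 0.11 log2, limma adjusted p = 8.42e-04). Uqcrc2 did not pass (-0.18 ± 0.15), and the Uqcrc2 libraries overlapped.

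In complex IV, Cox6a1, the widely expressed form of subunit 6a, was listed at 3106 and 2424 RPKM at E10.5, against 1005 and 797 RPKM at E9.5 (1.61 ± 0.17 log2, limma adjusted p = 1.75e-05). Cox7b2, a form of subunit 7b known from testis, was listed at 8.32 and 26.0 RPKM at E10.5 and at 0 in both E9.5 libraries (limma adjusted p = 0.00577, and 0.0527 without E10.5 replicate 2). Cox4i2 was the only member that fell, being listed at 0 in both E10.5 libraries against 27.2 and 28.6 RPKM at E9.5 (limma adjusted p = 7.73e-06). The mesenchyme markers summed to at most 5.87 RPKM at E10.5 and to 171 and 174 RPKM at E9.5, and their part in this difference was not tested.

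In complex V, Atp5g1 was listed at 1131 and 951 RPKM at E10.5, against 279 and 247 RPKM at E9.5 (1.98 ± 0.14 log2, limma adjusted p = 1.05e-06). The large catalytic subunits did not pass. Atp5b, the beta subunit that holds the catalytic sites, was listed at 1474 and 1388 RPKM at E10.5, against 1397 and 1232 RPKM at E9.5 (0.12 ± 0.08 log2, limma adjusted p = 0.301), and these libraries overlapped. Atp5a1, the alpha subunit (0.29 ± 0.18), and Atp5c1, the gamma subunit (0.37 ± 0.17), did not pass. Atp5hl1 and 1 of the Cox7a2 rows (ENSRNOG00000042903), 2.13 and 2.25 on the log2 scale, were called too. Atp5hl1 is by name a copy, and that Cox7a2 row shares its symbol with a far higher one, so reads may be split between them.

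Among mitochondrial genes the rise ran from 0.92 for Mt-atp6 and Mt-nd3 to 1.63 for Mt-nd4l on the log2 scale. Mt-co1 was listed at 1296 and 1408 RPKM at E10.5, against 665 and 536 RPKM at E9.5 (1.18 ± 0.17 log2, limma adjusted p = 2.05e-04). Mt-cox3, another core subunit of complex IV, was listed at 4656 and 4233 RPKM at E10.5, against 1840 and 1385 RPKM at E9.5 (1.48 ± 0.20 log2, limma adjusted p = 9.55e-05). Both genes were higher in each E10.5 library. Mt-co1 stayed within its epiblast range of 1128 to 1545 RPKM, while the Mt-cox3 libraries of E10.5 exceeded all 6 epiblast libraries, which reached 3519 RPKM.

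The E10.5 libraries had the low estimated depth and the high share of genes at 0 given above, and other abundant gene groups rose with the members. Of 68 cytosolic ribosomal protein genes 51 rose and 2 fell (median 1.03 log2), and of 70 mitochondrial ribosomal protein genes 49 rose and none fell (median 0.76). Markers of other cells fell in the same step. The endothelium and blood list summed to 1.19 and 2.29 RPKM at E10.5 and 28.1 and 110.6 RPKM at E9.5, with 2 of 5 tested genes falling, Kdr and Tal1, both averaging 0 RPKM at E10.5. Of 6 mesenchyme genes 5 fell, with Prrx2 at 2.83 RPKM on average at E10.5 and 118 RPKM at E9.5. Of 6 gut epithelium genes 4 fell and 1 rose, with Krt8 at 11.4 RPKM at E10.5 and 237.5 RPKM at E9.5, and of 7 gonadal somatic genes 3 fell, with Gata4 at 0 at E10.5 and 20.5 RPKM at E9.5. Their part in the rise of the members was not tested. The part of depth in the rise was not tested between E10.5 and E9.5, and the age and the depth cannot be told apart in this step. After quantile normalization 63 members rose and 3 fell, the median over members was 0.79 and that over all genes 0.03. With only the 4 libraries of these ages in the fit, 0 members were called and 65 were higher at an unadjusted p under 0.05.

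Promoters were read for nuclear members whether or not they rose at E10.5. The nuclear factors NRF1, the ETS factor GABP and YY1 are known to bind near the starts of many respiratory genes. Of 77 nuclear member symbols, 66 matched the RefSeq promoter set of build GRCr8 (51 by symbol and 15 by an older symbol), whose windows run from 250 bases before to 50 after the start. On either strand, the letters GCATGCG, the centre of the NRF1 motif, occurred in 11 of 66 windows, or 16.67%, and in 3.54% of all 27457 promoters. CCGGAAG (ETS) occurred in 19 of 66, or 28.79%, and in 9.22% of all promoters. ATGGCGG (YY1) occurred in 14 of 66, or 21.21%, and in 5.22% of all promoters. None of the 3 motifs was found in 35 of the 66. The windows of Atp5b and Ndufs1, picked as examples of members that did not pass at E10.5, held the YY1 letters. Whether matches differed between called members and the others was not tested. A match is a description of letters only. Among the genes of these factors, Yy1 rose at E10.5 against E9.5 (0.66 log2, limma adjusted p = 0.0236). Gabpa fell (-0.69 log2, limma adjusted p = 0.0375), while Nrf1 (0.30 log2, limma adjusted p = 0.146) and Gabpb1 (-0.02 log2) did not pass. Their part in the rise of the members was not tested.

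In 5 windows the NRF1 letters stood on both strands in 1 overlapping run within 100 bases before the start. They follow with that of Cox7b2, which has none of the 3 motifs, as the 250 bases before the start on the gene's strand, with all matches in capitals. Uqcrc1 lies at chr8:118467973-118468222 on the plus strand, and Ndufa11, a membrane-arm subunit of complex I, at chr9:1637364-1637613 on the plus strand. Atp5g2, another gene for subunit c (RefSeq Atp5mc2), lies at chr7:135678219-135678468 on the minus strand, Atp5i (subunit e, RefSeq Atp5me) at chr14:1464610-1464859 on the plus strand and Atp5o (the stalk subunit OSCP, RefSeq Atp5po) at chr11:44657484-44657733 on the minus strand. Cox7b2 lies at chr14:37046831-37047080 on the plus strand. In Atp5i the second capital run is the ETS motif on the opposite strand.
Uqcrc1: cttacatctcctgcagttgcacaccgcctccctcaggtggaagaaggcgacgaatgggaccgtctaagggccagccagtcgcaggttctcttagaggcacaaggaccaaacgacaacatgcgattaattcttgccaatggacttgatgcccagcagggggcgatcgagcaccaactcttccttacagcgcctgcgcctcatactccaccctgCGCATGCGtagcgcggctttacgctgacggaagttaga
Ndufa11: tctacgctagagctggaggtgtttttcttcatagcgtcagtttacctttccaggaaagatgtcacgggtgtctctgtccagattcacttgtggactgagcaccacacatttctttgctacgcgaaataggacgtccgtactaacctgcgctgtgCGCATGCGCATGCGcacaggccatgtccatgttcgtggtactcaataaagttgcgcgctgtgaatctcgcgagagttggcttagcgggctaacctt
Atp5g2: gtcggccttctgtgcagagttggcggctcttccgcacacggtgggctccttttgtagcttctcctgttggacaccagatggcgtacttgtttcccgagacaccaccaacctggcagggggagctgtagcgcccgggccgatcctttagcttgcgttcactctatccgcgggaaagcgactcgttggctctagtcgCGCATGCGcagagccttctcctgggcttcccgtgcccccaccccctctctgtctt
Atp5i: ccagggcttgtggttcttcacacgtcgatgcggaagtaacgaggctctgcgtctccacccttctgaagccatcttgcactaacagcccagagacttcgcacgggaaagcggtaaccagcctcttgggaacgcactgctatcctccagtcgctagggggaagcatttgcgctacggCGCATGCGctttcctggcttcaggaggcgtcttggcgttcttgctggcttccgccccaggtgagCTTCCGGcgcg
Atp5o: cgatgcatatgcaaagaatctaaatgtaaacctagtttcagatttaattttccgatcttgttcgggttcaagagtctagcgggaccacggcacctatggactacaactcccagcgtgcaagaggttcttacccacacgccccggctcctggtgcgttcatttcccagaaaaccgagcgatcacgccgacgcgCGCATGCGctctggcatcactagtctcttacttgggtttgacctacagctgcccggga
Cox7b2: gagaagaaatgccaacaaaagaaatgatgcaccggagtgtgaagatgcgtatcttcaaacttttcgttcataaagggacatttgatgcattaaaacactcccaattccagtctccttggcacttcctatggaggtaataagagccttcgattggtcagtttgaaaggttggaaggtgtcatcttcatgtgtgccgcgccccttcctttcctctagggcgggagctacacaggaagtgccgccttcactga
The capital run ends 30 bases before the start in Uqcrc1, 47 in Atp5g2, 50 in Atp5o, 67 in Atp5i and 82 in Ndufa11, where the motif recurs. Bases G and C make up 51.2% to 61.6% of these 5 windows and 46.8% of that of Cox7b2.

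The 5 genes with these runs were among the 64 of 82 nuclear members that rose at E10.5, Uqcrc1 with the values above. Some members whose windows hold none of the 3 motifs rose as well, with Ndufb6, Atp5g1 and Cox7b2 picked as examples. Rises of members with and without motifs were not compared. Atp5i was listed at 1800 and 1177 RPKM at E10.5, against 551 and 437 RPKM at E9.5 (1.57 ± 0.22 log2, limma adjusted p = 1.78e-04). Atp5g2 was listed at 1024 and 830 RPKM at E10.5, against 425 and 296 RPKM at E9.5 (1.38 ± 0.20 log2, limma adjusted p = 2.05e-04). Atp5o was listed at 1099 and 916 RPKM at E10.5, against 502 and 397 RPKM at E9.5 (1.17 ± 0.17 log2), and Ndufa11 at 662 and 459 RPKM at E10.5, against 212 and 177 RPKM at E9.5 (1.50 ± 0.18 log2). In each, both E10.5 libraries were the higher ones.

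The high levels of E10.5 were left in 2 steps, with mitochondrial and nuclear members called lower at E11.5 and nuclear members called lower at E12.5. Against E10.5, 1 member rose and 34 fell at E11.5, beside 3.59% and 3.61% of all genes (7.19% in all), with a median of -0.58 on the log2 scale against 0.03 over all genes. The falls were 27 of 82 nuclear and 7 of 11 mitochondrial members, in libraries of like estimated depth. Other measures of the libraries differed. All rows together totalled 671179 and 669651 RPKM at E11.5 and 849182 and 760137 RPKM at E10.5. Tested genes listed at 0 made up 14.36% and 14.96% at E11.5 and 21.35% and 21.61% at E10.5. Cytosolic ribosomal protein genes summed to 21520 and 21460 RPKM at E11.5 and 36560 and 29930 RPKM at E10.5. The part of these differences in the falls was not tested. All 11 mitochondrial members and 59 nuclear members had both E11.5 libraries below both E10.5 libraries, together 75.3% of members, against 19.2% of all tested genes. The count of falls was 7 without E10.5 replicate 1, without E11.5 replicate 1 or without E11.5 replicate 2. After quantile normalization 2 rose and 6 fell.

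Atp5g3, the third gene for subunit c, was listed at 661 and 727 RPKM at E11.5, against 1689 and 1330 RPKM at E10.5 (-1.11 ± 0.16 log2, limma adjusted p = 0.00176). Mt-cox3 was listed at 1893 and 2159 RPKM at E11.5, against 4656 and 4233 RPKM at E10.5 (-1.13 ± 0.20 log2, limma adjusted p = 0.00485). Mt-co1 was listed at 596 and 669 RPKM at E11.5, against 1296 and 1408 RPKM at E10.5 (-1.10 ± 0.17 log2, limma adjusted p = 0.00278, and 0.0915 after quantile normalization). Each of the 3 had both E11.5 libraries low. The 1 rise was in the lesser Uqcr10 row (ENSRNOG00000009521), listed at 5.20 and 10.7 RPKM at E11.5 and at 0 in both E10.5 libraries, and it was lost when any of 10 single libraries was left out.

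At E12.5 all members that fell were nuclear. Against E11.5, 0 members rose and 41 fell at E12.5, beside 4.12% and 3.09% of all genes (7.21% in all), and none of the 41 was mitochondrial. At an unadjusted p under 0.05, 2 members were higher. The falls were 19 of 34 nuclear members of complex I, 0 of 4 of complex II, 3 of 8 of complex III, 10 of 17 of complex IV and 9 of 19 of complex V. The count of falls was 18 and 19 without E11.5 replicate 1 or 2, and 24 and 11 without E12.5 replicate 1 or 2. After quantile normalization 4 members rose and 45 fell. Of mitochondrial members 3 rose and 0 fell under that setting (median 0.14 log2), and of nuclear members 1 rose and 45 fell (median -0.63). Estimated depth was 101% and 113% at E12.5 and 22.9% and 22.3% at E11.5, and its part in the falls was not tested. Cytosolic ribosomal protein genes fell too, with sums of 13590 and 13160 RPKM at E12.5 and 21520 and 21460 RPKM at E11.5.

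Atp5i was listed at 384 and 278 RPKM at E12.5, against 1215 and 1364 RPKM at E11.5 (-1.98 ± 0.22 log2, limma adjusted p = 4.18e-04). Atp5e, the epsilon subunit of the rotor's central stalk, was listed at 178 and 115 RPKM at E12.5, against 523 and 548 RPKM at E11.5 (-1.89 ± 0.26 log2, limma adjusted p = 0.00147). The lesser Cox6b1 row (ENSRNOG00000024309), 1 of 2 rows of that symbol, fell by 1.45 on the log2 scale. All of these had both E12.5 libraries below both E11.5 libraries. Mt-nd1, by contrast, was listed at 2206 and 2277 RPKM at E12.5, against 1462 and 1626 RPKM at E11.5 (0.54 ± 0.16 log2, limma adjusted p = 0.0541), which did not pass. Whether the change in this step differed between the genomes was not tested.

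Consecutive steps share libraries, so a rise into an age and a fall out of it are not independent. E12.5 and E9.5, both of full estimated depth, were set side by side after these results were seen. Against E9.5, 8 of 93 members rose and 6 fell at E12.5, beside 11.3% and 11.9% of all genes, with a median over nuclear members of -0.08 on the log2 scale. Mitochondrial members rose in 2 of 11 cases, Mt-nd1 (0.82 ± 0.16 log2, limma adjusted p = 0.00176) and Mt-co1 (0.56 ± 0.17 log2, limma adjusted p = 0.0295), with a median of 0.49. Sdha, at 343 and 375 RPKM at E12.5 against 215 and 242 RPKM at E9.5, rose by 0.65 ± 0.12 on the log2 scale (limma adjusted p = 0.00128).

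At E15.5, when germ cells lie in the sexed gonad, few members differed from E12.5. Against E12.5, 8 members rose and 3 fell at E15.5, beside 6.81% and 8.27% of all genes, and 0 of 11 mitochondrial members were called. Cox6b2, the testis form of subunit 6b of complex IV, was listed at 37.9 and 61.4 RPKM in female and 51.5 and 37.8 RPKM in male libraries at E15.5, against 22.7 and 17.5 RPKM at E12.5. All 4 E15.5 libraries were higher, and the rise was 1.17 ± 0.23 on the log2 scale (limma adjusted p = 0.00308, and 0.0694 without E12.5 replicate 2). Cox6b2 was already listed at 40.1 to 57.2 RPKM in epiblast and at 73.3 and 61.5 RPKM at E10.5. Between PGC and epiblast it did not pass (-0.19 log2, limma adjusted p = 0.231). Atp5e (0.90 log2, limma adjusted p = 0.0158) and Ndufs7, an iron-sulphur core subunit of complex I (0.55 log2, limma adjusted p = 0.0126), rose as well.

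Sdha was listed at 281 and 245 RPKM in female and 266 and 274 RPKM in male libraries at E15.5, against 343 and 375 RPKM at E12.5 (-0.43 ± 0.10 log2, limma adjusted p = 0.0124). Ndufb6 (-0.53 log2, limma adjusted p = 0.0465) and Ndufa4 (-0.47 log2, limma adjusted p = 0.0483) fell as well. The calls for Ndufb6 and Ndufa4 lie close to the threshold and were each lost when any of 13 single libraries was left out, with a pseudocount of 0.1, with no filter on low values, under median-ratio scaling, with the replicate block and with only the compared groups in the fit. All 3 had every E15.5 library below both E12.5 libraries. Without E12.5 replicate 2, 0 members rose and 0 fell at E15.5. The count of rises was 3 without E12.5 replicate 1, 4 and 5 without male replicate 1 or 2, 3 without female replicate 2, and 5 without E7.25 male replicate 2. The count of falls was 5 without female replicate 2 and 1 when any of 11 other libraries was left out, and after quantile normalization 16 rose and 4 fell.

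Between the sexes at E15.5, 6 members were higher and 2 lower in female PGC, beside 4.33% and 5.35% of all genes (9.68% in all). Ndufb11, an X-linked accessory subunit of complex I, was listed at 245 and 380 RPKM in female libraries, against 184 and 152 RPKM in male libraries. It was higher by 0.86 ± 0.19 on the log2 scale (limma adjusted p = 0.00913), with no overlap. Ndufa2 (0.77 log2, limma adjusted p = 0.0185), Ndufv2 (0.67 log2, limma adjusted p = 0.0291) and Cox4i2, at 3.60 RPKM on average in female and 0.336 RPKM in male libraries, were higher as well. Cox7b, also X-linked, was listed at 213 and 300 RPKM in female and 194 and 147 RPKM in male libraries (0.58 ± 0.21 log2, limma adjusted p = 0.105), and did not pass.

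Atp5b was lower in female PGC, at 1126 and 1113 RPKM, against 1593 and 1510 RPKM in male PGC (-0.47 ± 0.08 log2, limma adjusted p = 0.00321), as was Uqcrfs1, the Rieske iron-sulphur protein of complex III (-0.59 log2, limma adjusted p = 0.0255). Female replicate 2 was higher than female replicate 1 in 82 of 93 members, and male replicate 1 was higher than male replicate 2 in 72. The higher calls numbered 0 without female replicate 2 or without male replicate 2, 12 without female replicate 1 and 3 without male replicate 1, and the lower calls 1 without female or male replicate 1. The call for Ndufb11 was lost without female replicate 2 (0.55 log2, limma adjusted p = 0.0996) and without male replicate 2 (0.73 log2, limma adjusted p = 0.0941), that for Atp5b in neither case. After quantile normalization 19 were higher and 2 lower.

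**Figure D4:**
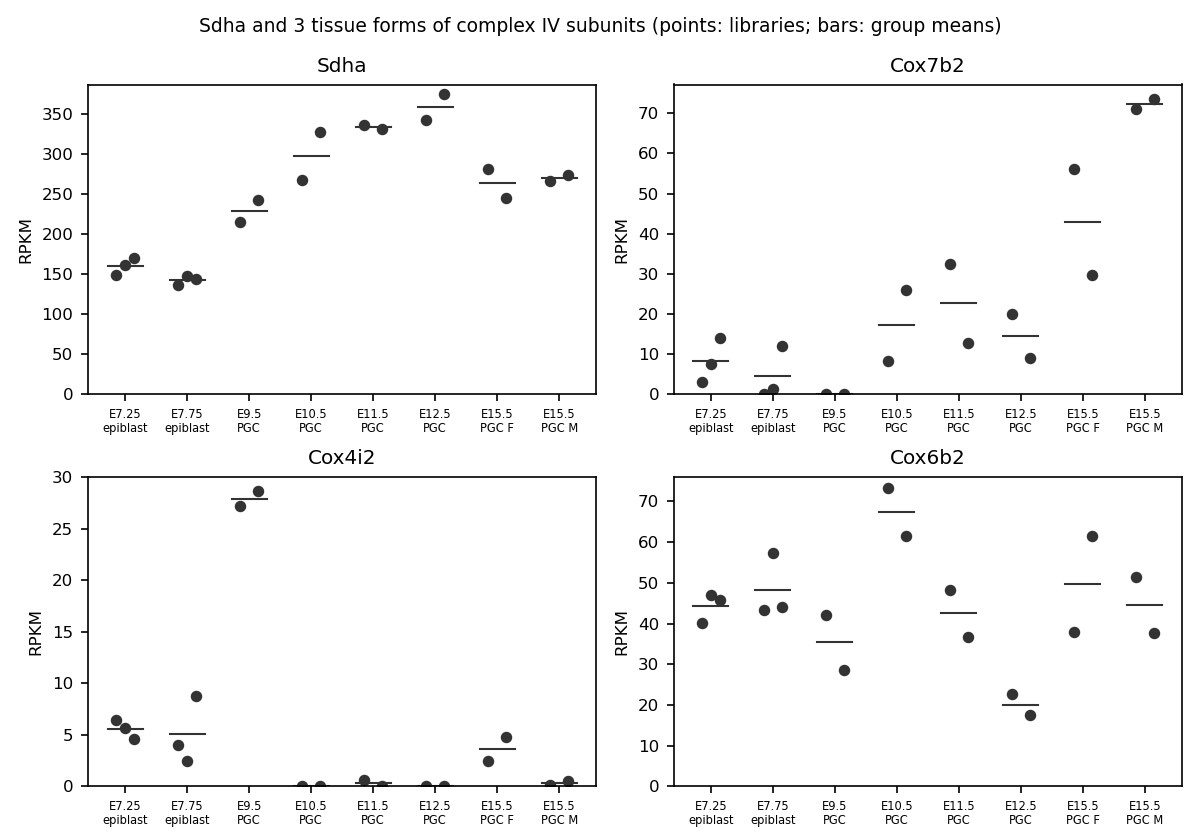
RPKM of Sdha, Cox7b2, Cox4i2 and Cox6b2 in each of 18 libraries by stage, with 1 point a library and bars at group means. Sdha is at 215 to 375 RPKM in the 12 PGC libraries and 137 to 170 RPKM in the 6 epiblast libraries, and Cox4i2 is highest at E9.5 (27.2 and 28.6 RPKM).

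Averaged over the 6 PGC groups, members were called in both directions against the 2 epiblast groups. Of 93 members 27 were higher and 25 lower in PGC, beside 32.1% and 26.4% of all genes, with a median of -0.04 on the log2 scale against 0.09. In complex I 17 nuclear members were higher and 3 lower of 34, in complex II 2 and 0 of 4, in complex III 3 and 3 of 8, in complex IV 1 and 6 of 17, and in complex V 2 and 8 of 19. Mitochondrial members were higher in 2 and lower in 5 of 11 cases. The difference between complexes was not tested, and the counts in complexes I, IV and V moved with the libraries and the scaling used.

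These counts rest on the E10.5 and E11.5 libraries. Without them 14 members were higher and 46 lower, with a median of -0.24, and in complex I 7 were higher and 12 lower. The lower calls then numbered 12 of 17 in nuclear complex IV, 11 of 19 in nuclear complex V and 7 of 11 among mitochondrial members. After quantile normalization 41 were higher and 19 lower, with 22 and 5 in complex I, 4 and 4 in complex IV and 6 and 4 in complex V. With PGC and epiblast as 2 plain groups, 10 were higher and 7 lower.

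**Figure D5:**
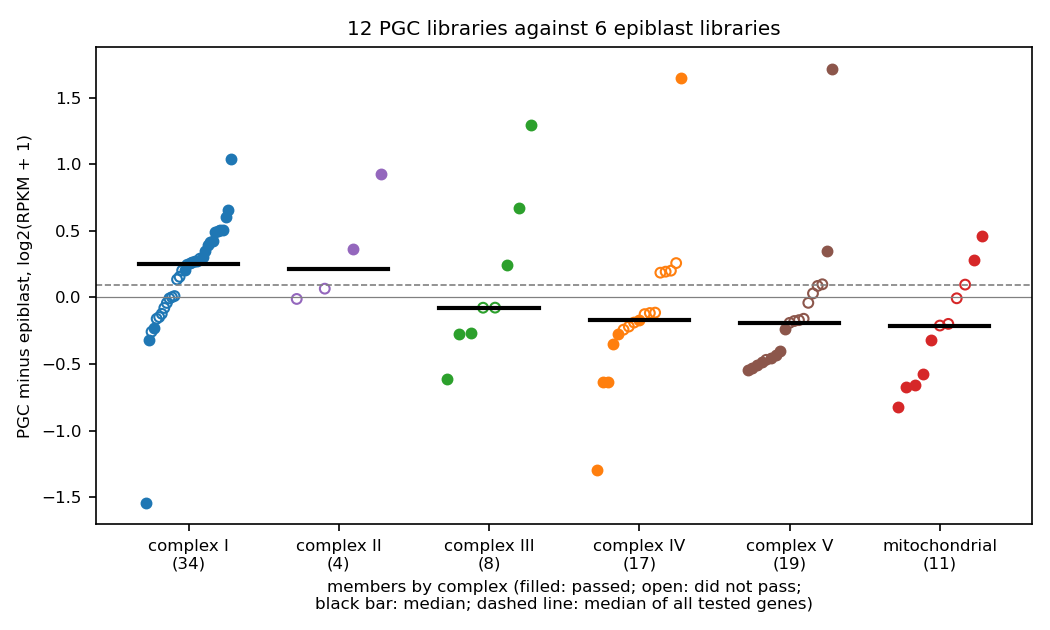
Difference of each of the 93 members between PGC and epiblast, in log2(RPKM + 1), with nuclear members by complex and mitochondrial members together, filled points for an adjusted p under 0.05, bars at medians and the median of all tested genes dashed. Called nuclear members of complex I lie mostly above 0 (17 of 20), and those of complexes IV and V mostly below 0 (6 of 7 and 8 of 10).

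Sdha was the 1 of 93 members (1.08%) in which all 12 PGC libraries exceeded all 6 epiblast libraries, as they did in 5.63% of all tested genes. It was listed at 215 to 375 RPKM in PGC with a median of 277.6 RPKM, against 137 to 170 RPKM in epiblast with a median of 148 RPKM (0.93 ± 0.06 log2, limma adjusted p = 1.11e-08). Its partner Sdhb, the iron-sulphur protein of complex II, was also higher (0.37 ± 0.07 log2, limma adjusted p = 6.33e-04), and the membrane anchors Sdhc (0.07 ± 0.06) and Sdhd (-0.01 ± 0.09) did not pass. Without the E10.5 and E11.5 libraries the difference for Sdha was 0.87 on the log2 scale (limma adjusted p = 2.51e-07).

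In complex I, Ndufb6 was listed at 178 to 1008 RPKM in PGC and 166 to 184 RPKM in epiblast (1.04 ± 0.10 log2, limma adjusted p = 4.53e-07), so that only the lowest PGC library lay within the epiblast range. Ndufb11 (0.66 ± 0.09 log2, limma adjusted p = 2.98e-05) and Ndufb8 (0.61 ± 0.07 log2, limma adjusted p = 3.08e-06), both of the membrane arm, were higher too. Among those that were lower, Ndufa4 averaged 362 RPKM in PGC and 400 RPKM in epiblast (-0.32 ± 0.09 log2, limma adjusted p = 0.00573). Its form Ndufa4l2, known as a hypoxia-induced gene, averaged 1.14 RPKM in PGC and 4.98 RPKM in epiblast (-1.54 ± 0.27 log2, limma adjusted p = 2.02e-04).

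In complex III, Uqcrc1 averaged 540 RPKM in PGC and 335 RPKM in epiblast (0.67 ± 0.06 log2, limma adjusted p = 1.71e-07), and only E9.5 replicate 1, at 353 RPKM, lay within the epiblast range of 315 to 356 RPKM. Uqcrh averaged 331 RPKM in PGC and 467 RPKM in epiblast (-0.61 ± 0.09 log2, limma adjusted p = 3.29e-05). Uqcrc2 was higher (0.25 log2, limma adjusted p = 0.0103) and Uqcrq lower (-0.27 log2, limma adjusted p = 0.0383). The call for Uqcrc2 was lost under median-ratio scaling (limma adjusted p = 0.0754), and that for Uqcrq when any of 12 single libraries was left out.

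In complex IV, Cox7c averaged 645 RPKM in PGC and 892 RPKM in epiblast (-0.63 ± 0.10 log2, limma adjusted p = 7.06e-05), and Cox7b 318 RPKM in PGC and 441 RPKM in epiblast (-0.64 ± 0.11 log2, limma adjusted p = 1.28e-04). The PGC libraries of both ranged above and below epiblast, with E10.5 replicate 1 highest. Cox4i2 was called lower as well (-1.30 ± 0.22 log2, limma adjusted p = 1.70e-04), with medians of 0.336 RPKM in PGC and 5.17 RPKM in epiblast. Its means were 5.36 RPKM in PGC and 5.33 RPKM in epiblast, E9.5 being high. With PGC and epiblast as 2 plain groups the Cox4i2 call was lost (limma adjusted p = 0.154). Cox7b2 was the 1 higher member. It was listed at 0 to 73.5 RPKM in PGC and 0 to 14.0 RPKM in epiblast (1.65 ± 0.47 log2, limma adjusted p = 0.00806), with all 4 E15.5 libraries above every epiblast library. With PGC and epiblast as 2 plain groups its adjusted p was 0.141.

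In complex V, Atp5o averaged 538 RPKM in PGC and 391 RPKM in epiblast (0.35 ± 0.08 log2, limma adjusted p = 0.00237), and this difference was 0.02 without the E10.5 and E11.5 libraries (limma adjusted p = 0.867). Atp5g3 (-0.40 ± 0.08 log2, limma adjusted p = 7.25e-04) and Atp5e (-0.53 ± 0.13 log2, limma adjusted p = 0.00338) were lower. Atp5b averaged 1375 RPKM in PGC and 1288 RPKM in epiblast and did not pass. The largest rise was in the assembly-linked Atp5s, at 1.44 to 20.7 RPKM in PGC and 0.270 to 3.96 RPKM in epiblast (1.72 ± 0.29 log2, limma adjusted p = 1.36e-04), with both female E15.5 libraries highest.

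Mitochondrial members were called in both directions. Mt-co1 averaged 807 RPKM in PGC and 1370 RPKM in epiblast (-0.82 ± 0.09 log2, limma adjusted p = 1.72e-06), and outside E10.5 every PGC library, at 895 RPKM or less, lay below every epiblast library, at 1128 RPKM or more. Mt-atp8 (-0.67 ± 0.09 log2), Mt-atp6 (-0.57 ± 0.09 log2), Mt-nd3 (-0.66 ± 0.14 log2) and Mt-co2 (-0.32 ± 0.09 log2) were also lower in the same test. Mt-nd5 averaged 305 RPKM in PGC and 214 RPKM in epiblast (0.46 ± 0.12 log2, limma adjusted p = 0.00343) and Mt-nd1 1971 RPKM in PGC and 1566 RPKM in epiblast (0.28 ± 0.08 log2, limma adjusted p = 0.00677). The Mt-nd1 call was lost without the E10.5 and E11.5 libraries (0.22 log2, limma adjusted p = 0.0509). Mt-cox3, which did not pass (-0.20 ± 0.10 log2), was 0.19 higher in PGC after quantile normalization (limma adjusted p = 0.00466).

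Paired tissue forms were also set against each other by their share of the summed level, which is per length. Cox4i2 made up 12.8% and 17.7% of the summed Cox4i1 and Cox4i2 level at E9.5, and Cox4i1 was listed at 133 to 341 RPKM in all libraries. Cox7b2 made up 20.8% and 8.99% of the summed Cox7b2 and Cox7b level in female and 26.9% and 33.4% in male E15.5 libraries. The E15.5 rise of Cox7b2 against E12.5, 57.6 RPKM on average against 14.5 RPKM, did not pass (1.93 ± 0.82 log2, limma adjusted p = 0.141), although the libraries did not overlap. Cox8c, a testis form of subunit 8, was listed at no more than 1.57 RPKM.

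Among genes around the complexes, most glycolysis genes were lower in PGC. Of 20 glycolysis genes 18 were lower and 1 higher in PGC (median -1.61 log2), with the lactate exporter Slc16a3 at -4.26 and the brake on pyruvate use Pdk1 at -3.38, while Ldhb was higher by 1.54. Of 14 tricarboxylic acid cycle genes 8 were higher and 2 lower (median 0.39), with Sucla2 (1.07) and Suclg2 (0.96) highest and Idh3a (-0.97) and Fh (-0.39) lower. Of 40 assembly factors 13 were higher and 8 lower, led by Tmem70 (1.30) and Ndufaf1 (1.25), with Lyrm7 (-1.98) and Sdhaf3 (-1.46) lower. The same shares over all genes were 32.1% and 26.4%.

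Of 9 electron carriers and subunits outside the symbol rule, 2 were higher and 4 lower in PGC, the electron-transfer flavoprotein genes Etfa (1.17) and Etfdh (1.07) being the higher ones. Of 11 genes for mitochondrial DNA maintenance and expression, Tefm (1.15) and Mgme1 (1.04) were the highest of 3 and Tfb1m (-0.47) the 1 lower. Of 9 regulators, Nrf1 was higher (0.56) and Gabpa (-0.68) and Hif1a (-0.23) lower. Mitochondrial ribosomal proteins were higher in 15 and lower in 28 of 70 cases, led by Mrpl23 (1.11) and Mrps34 (-1.17).

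At E9.5 against E7.75, 15 of 20 glycolysis genes fell and 1 rose, 27 of 70 mitochondrial ribosomal proteins fell and 1 rose, and 3 of 14 tricarboxylic acid cycle genes rose and 2 fell. Assembly factors rose in 4 and fell in 7 of 40 cases. Over all genes 16.3% rose and 11.3% fell in that step. At E10.5 against E9.5, 13 of 40 assembly factors rose and 2 fell, with the copper chaperone Cox17 at 526 RPKM against 118 RPKM (2.15 log2, limma adjusted p = 1.60e-05). In that step 1 of 14 tricarboxylic acid cycle genes rose and 3 fell, and 13 of 20 glycolysis genes fell and 1, Ldhb, rose, beside 11.5% of all genes rising and 18.4% falling. Cox14, another complex IV assembly factor, rose by 1.85 and Foxred1, a complex I assembly factor, fell by 1.59 on the log2 scale.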

How the data were processed

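Members and gene lists were chosen with earlier results of these data known. Per the labels' protocols, extraction used PicoPure and library preparation SMART-Seq v4. The authors deposited 1 table of RPKM values per gene, which carries length and depth scaling, so that counts and totals are not known. Per the submitters' processing notes, the tools were bcl2fastq 2.18.0.12, cutadapt 1.14, TopHat2 2.1.0 and Cufflinks 2.2.1, with genome build rn6. The sources used here do not give their roles, the annotation, or how strand and multiply matching reads were handled.

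From the table, log2(RPKM + 1) was fitted with limma 3.58.1 (R 4.3.3) over 8 groups of age, cell type and, at E15.5, sex, with a mean-variance trend and 10 residual degrees of freedom. The 14865 of 32545 rows with at least 1 RPKM in at least 2 libraries were tested, and Benjamini-Hochberg adjustment ran over all of them with a threshold of 0.05. Differences on this scale understate the change of low genes. The fit was tested on simulated data with independent normal noise for each gene. These data had no values set to 0, no depth differences and no shifts shared by members. They therefore do not cover the conditions of the E10.5 and E11.5 libraries. Comparisons were PGC against epiblast, each age against the one before, and female against male at E15.5, and those that share an age share its libraries. Alternatives were a pseudocount of 0.1, no filter, median-ratio scaling, quantile normalization, a replicate block, only the compared groups in the fit, and leaving out each library. After seeing the data, leaving out the E10.5 and E11.5 libraries, PGC and epiblast as 2 plain groups, E12.5 against E9.5, and the cytosolic ribosome and core-subunit lists were added. Relative depth was taken from the most common ratio of values under 50 RPKM.

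Named members were, per comparison, the 3 largest rises and 3 largest falls among called members with at least 5 RPKM in the higher group. For PGC against epiblast they also included 2 rises, 2 falls and the highest member of each complex, with all mitochondrial genes, paired tissue forms and X-linked subunits. Ndufa11, Ndufs1, Cox6a1, Uqcrh at E10.5, Atp5b at other steps and the 5 genes with the NRF1 runs were chosen after their values or sequences were seen. Ndufb6, Sdha, Sdhd, Uqcrc2, Atp5a1 and Atp5c1 at E10.5 also lay outside the rule. So did Ndufb8, Sdhc, Sdhd, Cox7c and Atp5e between PGC and epiblast, and Sdha at E12.5 against E9.5. Promoters came from RefSeq, build GRCr8, and figures from matplotlib 3.10.9. Results for 1 member are not reported here by name and it has no row in the heat map.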

Additional observations from a re-analysis of the deposited data

Results flagged for a closer look

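Of 45 groups of values examined, 2 held a library flagged for its gap from the others, and chance flags about 1 in 20 groups. Atp5hl1, a copy of an ATP synthase subunit gene, was listed at 20.6 RPKM in E7.75 male replicate 2 and at 36.1 to 40.9 RPKM in the other 5 epiblast libraries, a gap of 0.763 of the range. The lesser Uqcr10 row (ENSRNOG00000009521) was listed at 1.2 RPKM in E7.25 male replicate 2 and at 0 in the other 5 epiblast libraries, a gap of 1 times the range. With the other 5 at 0, any value above 0 gives a gap of 1. The rate of 1 in 20 therefore does not apply to this row, and its flag carries no information.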

How the results depend on the processing

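A pseudocount of 0.1 moved the rises at E11.5 to 0 and the falls at E15.5 to 1. With no filter, E11.5 had 0 rises and 10 falls, E12.5 had 25 falls, E15.5 had 4 rises and 1 fall, and female against male had 1 of each. Median-ratio scaling left 1 fall at E15.5. Quantile normalization gave 41 members higher in PGC, 14 rises at E9.5, 3 falls at E10.5, 2 rises and 6 falls at E11.5, 4 rises at E12.5, 16 rises at E15.5 and 19 members higher in female PGC, and turned Mt-cox3 to 0.19 (log2) between PGC and epiblast. In fits with only the compared groups, 2 or 3 libraries a group set the spread. There were then 11 falls at E9.5, with 0 rises and 0 falls at E10.5 and 0 falls at E11.5 and at E12.5. At E15.5 there were 2 rises and 0 falls, and 0 of each between the sexes. At an unadjusted p under 0.05 these fits had 65 rises and 1 fall at E10.5, 38 falls at E11.5, 58 falls at E12.5, and 7 higher and 1 lower in female PGC. Without the E10.5 and E11.5 libraries, PGC against epiblast gave 14 higher and 46 lower, and as 2 plain groups 10 and 7. Leaving out 1 library gave 26 to 30 higher and 19 to 34 lower in PGC, 3 to 5 rises and 13 to 34 falls at E9.5, 67 to 76 rises and 1 to 2 falls at E10.5, 0 to 1 rises and 7 to 45 falls at E11.5, 0 to 1 rises and 11 to 46 falls at E12.5, 0 to 12 rises and 0 to 5 falls at E15.5, and 0 to 12 higher and 1 to 3 lower in female PGC. Replicate numbers did not pair libraries (correlations of deviations between -0.081 and 0.058), and a replicate block moved 1 count past 1.5 times, leaving 1 fall at E15.5. Over 47 named results, 53 of 337 values under other settings lost the call, 24 of them with only the compared groups in the fit, as did 67 values with 1 library left out, while 2 gained it and 1 changed sign. The cause of these moves was not tested. With 2 libraries at most ages and no counts, small changes of low members could not be resolved.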
